A study of Mus musculus with 4 samples.

Results

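Cytosolic ribosomal proteins build the ribosomes that translate nearly all cellular mRNA, and their symbols took in 40 of the 17734 genes named on the array, measured by 49 of its 26423 probes. The members were all probes whose gene symbol begins with Rpl or Rps and a digit or with Rplp0, Rplp1 or Rplp2, or is Rpsa, leaving out S6 kinase genes and pseudogenes, whatever their intensity. Of the 40 genes, 25 carry a large subunit symbol (32 probes) and 15 a small subunit symbol (17 probes). Ribosomal proteins proper are encoded by 35 of them (41 probes, 22 genes of the large and 13 of the small subunit). The other 5 genes are the paralogs Rpl3l, Rpl7l1, Rpl39l and Rps27l, and Rps19bp1, which encodes a binding partner of Rps19 and no ribosomal protein. All 49 probes had values above 0 on every array and entered the fit. Ribosomal proteins with no probe under these symbols were not analysed here.

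All samples came from 3T3-L1, mouse preadipocytes kept as a cell line, which turn into fat-storing adipocytes when induced. The 2 berberine samples received the induction mixture together with 13.47 µM berberine, a plant alkaloid, for 48 hours. The 2 control samples received the same mixture alone for 48 hours: insulin at 1 µg/ml, dexamethasone at 1 µM and isobutylmethylxanthine at 0.5 mM. The question behind the design is what berberine does to gene expression in induced cells. Each sample was read on 1 array, and nothing in the labels says that samples of a group came from separate cultures, so p-values measure the spread between arrays, which may be technical.

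Each ribosome joins a small subunit, which reads the mRNA, to a large subunit, which forms peptide bonds. The ribosomal proteins of a subunit are needed in matching amounts, and many of their mRNAs begin with a cytosine followed by a run of pyrimidines, the 5′ terminal oligopyrimidine (TOP) motif, through which mTOR signalling controls their translation. Some ribosomal proteins, among them Rpl5, Rpl11 and Rpl23, also bind Mdm2, the ubiquitin ligase that degrades p53. In fat cell studies several ribosomal protein mRNAs, Rplp0 above all, serve as reference genes against which other mRNAs are scaled.

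Log2 intensities were quantile-normalized, and a log2 change is berberine minus control, with adjusted p from limma (Benjamini-Hochberg over 26408 probes, threshold 0.05). The floor is the 25th percentile of all normalized values (log2 6.57, an intensity of 95.3). The 2 groups differed in how far the cells carried fat cell markers. Adipoq, which encodes the fat cell hormone adiponectin, read 10.52 and 10.57 on log2 with berberine, against 17.56 and 17.47 in control. Over 11 mature adipocyte markers the summed normalized intensity was 31229 and 34331 on the berberine arrays, against 587196 and 563386 on the control arrays. Of these markers 7 were called lower and 1, Pparg, higher, and Pparg and Lpl lay below the floor in both groups. For 8 preadipocyte and fibroblast markers the sums were 451619 and 473068 with berberine, against 499591 and 473196 in control, with 3 called higher and 3 lower. Summed macrophage, endothelial and skeletal muscle markers reached at most 1236 on any array. What part the adipocyte marker difference has in the results on ribosomal proteins was not tested, and in bulk RNA fewer cells of a type and less RNA per cell cannot be told apart. Array pairs of one group correlated across all probes at 0.994 for berberine and 0.991 for control. The median deposited intensity was 237 and 280 with berberine, against 423 and 350 in control.

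Ribosomal protein probes moved both ways with berberine. Falls outnumbered rises after quantile normalization but not after centring on the median, where 19 rose and 15 fell (40.5% and 12.5% of all probes). After quantile normalization 12 of the 49 probes rose, 20 fell and 17 did not pass. Over all probes 44.8% were called, with 27.1% higher and 17.7% lower, so the share of members that rose (24.5%) lay near the background and the share that fell (40.8%) lay above it. The median log2 change was -0.31 over the members and 0.17 over all probes. With at least a 2-fold change required as well, 4 members rose, where 10.8% of all probes did, and 16 fell, where 11.1% of all probes did. Both berberine arrays read above both control arrays at 19 member probes (46.6% of all probes) and below both at 24 (28.2% of all probes), while the groups overlapped at 6. Of all probes 74.8% showed no overlap either way, so lack of overlap alone sets no probe apart. At least 8-fold lower values were seen at 4 member probes, where 2.92% of all probes had them, and no member rose by as much. The 2 arrays of a group differed at a member probe by a median of 0.13 on log2 for berberine and 0.21 for control.

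**Figure D1:**
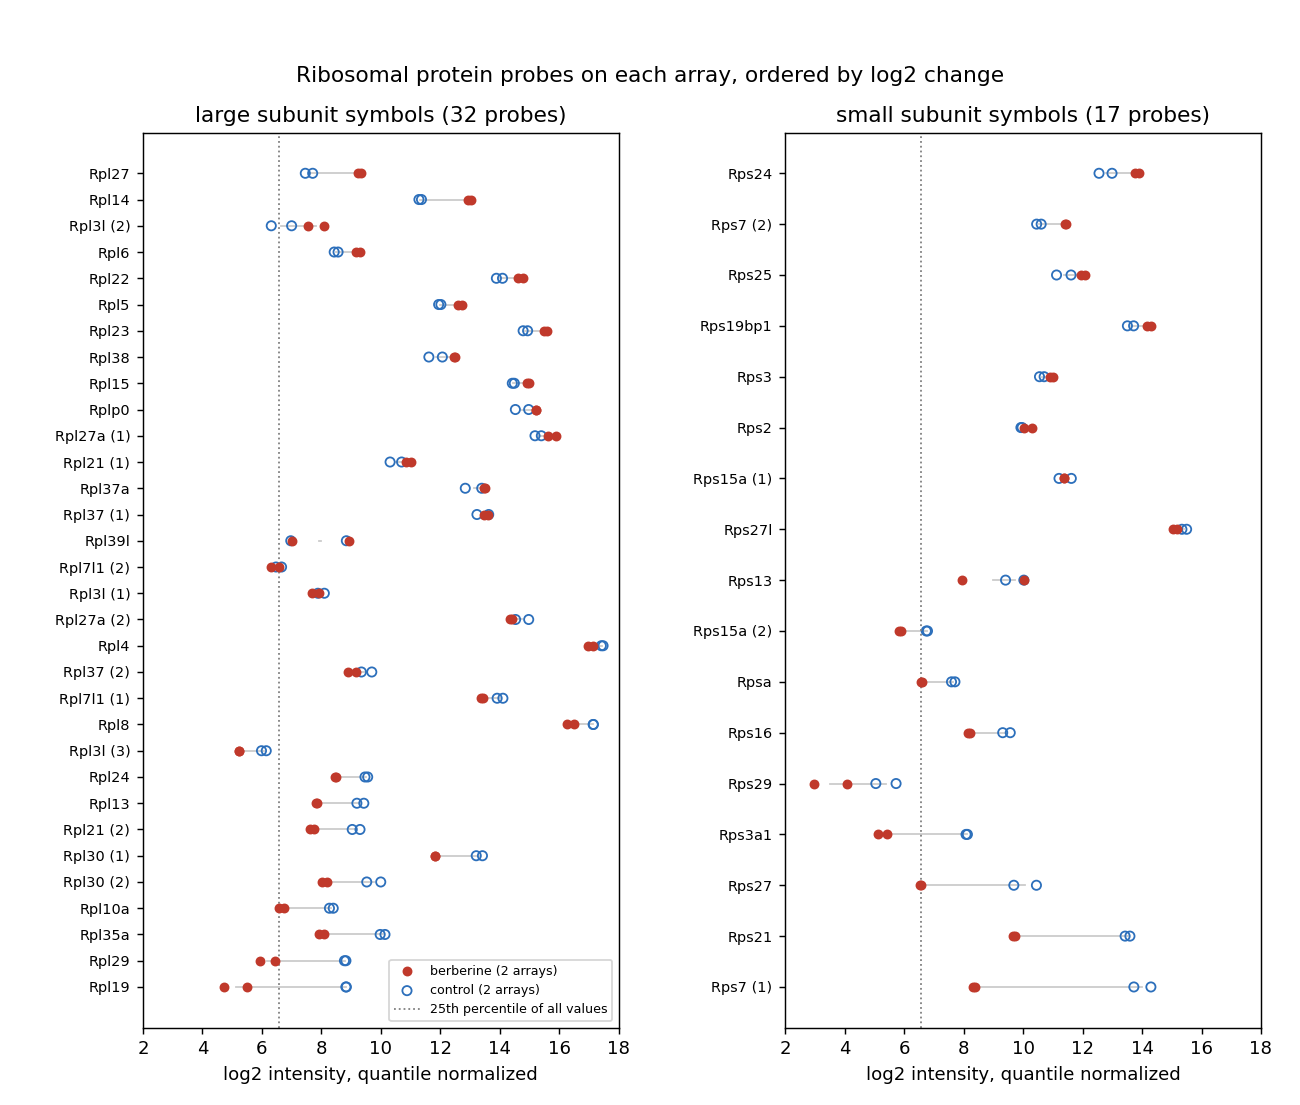
Quantile-normalized log2 intensity (horizontal axis) of each ribosomal protein probe on the 2 berberine arrays (filled red) and the 2 control arrays (open blue), by subunit, ordered by log2 change, with a grey line between the group means and a dotted line at the 25th percentile of all values, log2 6.57. A number in brackets ranks the probes of one gene by intensity. Rps7 (1) has both berberine arrays near 8.3 and both control arrays near 14, while Rps7 (2) has both berberine arrays above both control arrays.

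The start-site sequences of 6 genes are shown because these genes span the rises and falls described next and TOP motifs are the feature their family is known for. Of the 40 genes 35 had a promoter in the RefSeq table (GRCm38.p6). The search took runs of at least 6 letters C or T that begin with C and overlap the 10 bases on either side of an annotated start. On the transcript strand such a run was found for 18 of 35 member genes (51.4%) and for 26.6% of all 27025 genes of the table. On the opposite strand it was found for 14.3% of the member genes and 30.0% of all genes. Only annotated starts were searched, so a gene without a run on the transcript strand is not shown to lack a TOP motif. Each window below runs 5′ to 3′ from 25 bases before the annotated start through 12 bases from it, and capitals mark the run.
Rpl14, chr9:120571492-120571528, plus strand: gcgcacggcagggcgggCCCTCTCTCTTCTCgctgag
Rpl35a, chr16:33056457-33056493, plus strand: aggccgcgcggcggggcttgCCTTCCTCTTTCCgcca
Rps24, chr14:24490653-24490689, plus strand: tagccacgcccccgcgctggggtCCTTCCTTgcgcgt
Rps21, chr2:180257354-180257390, plus strand: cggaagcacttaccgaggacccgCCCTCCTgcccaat
Rps27, chr3:90213637-90213673, minus strand: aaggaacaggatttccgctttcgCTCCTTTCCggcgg
Rps7, chr12:28635942-28635978, minus strand: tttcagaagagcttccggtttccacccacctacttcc
Rpl35a, Rps24 and Rps21 have more than 1 annotated start, and the one with a run is shown. The windows of Rpl27, which rose, and of Rplp0 hold no such run and are not shown. Of these genes Rpl14 and Rps24 rose, Rpl35a, Rps21 and Rps27 fell, and Rps7, whose window holds no such run, gave opposite changes at its probes. By the brightest probe of each gene, 5 of 16 ribosomal protein genes with a run rose and 6 fell, while 4 of 14 genes without one rose and 5 fell. Rps7 counts as a fall here. Over all genes 30.0% rose and 18.2% fell by the brightest probe. The median log2 changes of the ribosomal protein genes were 0.096 with a run and 0.21 without.

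In the large subunit 8 of 26 probes of ribosomal proteins proper rose and 10 fell. Rpl14 read 13.03 and 12.94 on log2 on the berberine arrays, against 11.37 and 11.28 on the control arrays. It rose 3.16-fold (log2 change 1.66, SE 0.12, adjusted p = 0.00076). Rpl27, a reference gene in some assays, read 9.22 and 9.34 with berberine, against 7.71 and 7.46 in control. It rose 3.25-fold (log2 change 1.70, SE 0.15, adjusted p = 0.00113). At both genes the berberine arrays lay far above the control arrays, and both calls held in every alternative setting tried. No other large subunit probe of a ribosomal protein proper rose by as much as 2-fold after quantile normalization.

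The other rises of large subunit ribosomal proteins proper were smaller after quantile normalization. Rpl5, which carries 5S rRNA into the ribosome and binds Mdm2, read 12.60 and 12.72 with berberine, against 11.94 and 12.02 in control (log2 change 0.68, adjusted p = 0.0114). Rpl23, which also binds Mdm2, read 15.59 and 15.48 with berberine, against 14.78 and 14.94 in control (log2 change 0.68, adjusted p = 0.0132). In both the arrays of a group lay close together and the groups did not overlap, as at 74.8% of all probes. Rpl22, an RNA-binding protein of the large subunit, read 14.62 and 14.77 with berberine, against 14.09 and 13.88 in control, and rose 1.63-fold (adjusted p = 0.0147). Rpl6 read 9.31 and 9.15 with berberine, against 8.56 and 8.43 in control, and rose 1.66-fold (adjusted p = 0.011). Again the groups did not overlap. Rpl38, which in mice is needed for the translation of Hox mRNAs, rose by 0.64 on log2 (adjusted p = 0.0457), and Rpl15 by 0.50 (adjusted p = 0.0252). Without berberine replicate 1 or 2 none of these 6 genes passed (adjusted p 0.0791 to 0.229), and without control replicate 2 Rpl22, Rpl6, Rpl38 and Rpl15 did not (0.0513 to 0.058). In the deposited values Rpl5, Rpl22, Rpl6, Rpl38 and Rpl15 did not pass (adjusted p 0.053 to 0.78), and Rpl6 had a log2 change of 0.12 there. After cyclic loess Rpl23, Rpl6, Rpl38 and Rpl15 did not pass (0.0574 to 0.166), nor did Rpl6 with 75th percentile scaling (0.13). Centring on the median gave larger rises, from 1.18 (Rpl38) to 1.47 (Rpl22) on log2 at all but Rpl6, which rose by 0.69. All of these passed after centring (adjusted p 0.00259 to 0.0232).

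Falls in the large subunit were larger than most of the rises. Rpl19, a common reference gene, read 5.50 and 4.74 with berberine, against 8.84 and 8.82 in control. The berberine mean lay below the floor, so the fall was at least 4.78-fold (adjusted p = 0.000712). Rpl29 read 5.93 and 6.44 with berberine, against 8.77 and 8.82 in control, a fall of at least 4.68-fold (adjusted p = 0.000835). For both genes the control arrays agreed closely, and the berberine arrays were as dim as the lowest quartile of all values, where the unknown zero point of the deposited intensities weighs most.

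Rpl35a, which is mutated in some people with Diamond-Blackfan anaemia, a failure of red cell production, read 8.08 and 7.91 with berberine, against 9.98 and 10.14 in control. It fell 4.17-fold (log2 change -2.06, SE 0.14, adjusted p = 0.000585). Rpl10a read 6.75 and 6.57 with berberine, the second just below the floor, against 8.27 and 8.40 in control. It fell 3.19-fold (adjusted p = 0.000962). These groups were tight within themselves. Rpl13 read 7.86 and 7.82 with berberine, against 9.19 and 9.43 in control, and fell 2.77-fold (adjusted p = 0.0015). Rpl24, whose protein forms a bridge between the subunits, fell 2.05-fold (adjusted p = 0.00283). Rpl30 fell at both of its probes. Apart from Rpl24, these genes kept their calls in every alternative setting at the brightest probe of each. Without berberine replicate 1 or 2, Rpl24 did not pass (adjusted p 0.0518 and 0.059).

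The 4 brightest large subunit genes, Rpl4, Rpl8, Rpl27a and Rpl23, all differed by less than 2-fold after quantile normalization, which did not hold for Rpl23 and Rpl27a after centring on the median (log2 changes 1.45 and 1.25), for Rpl23 after 75th percentile scaling (1.19) or for Rpl8 after cyclic loess (-1.23). Rpl4, a protein of the exit tunnel for new peptides, read 16.95 and 17.13 with berberine, against 17.41 and 17.47 in control, which missed the threshold (log2 change -0.40, adjusted p = 0.0626) after quantile normalization. It was called lower under 3 alternative settings, cyclic loess among them (log2 change -0.999, adjusted p = 0.00524), and was 0.087 on log2 after arrays were centred on their median. Rpl8 read 16.27 and 16.51 with berberine, against 17.14 and 17.15 in control, and fell 1.69-fold (adjusted p = 0.0113). The Rpl8 call was lost under 3 scalings (deposited, median and 75th percentile) and whichever array was left out (adjusted p 0.0532 to 0.0914). Rpl37a, also bright, did not pass (log2 change 0.38, adjusted p = 0.206), but was called higher after centring on the median, with 75th percentile scaling and without control replicate 1 (adjusted p 0.0237, 0.0405 and 0.027).

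In the small subunit 2 of 15 probes of ribosomal proteins proper rose and 8 fell. Rps21 read 9.73 and 9.66 with berberine, against 13.43 and 13.59 in control. It fell 14.1-fold (log2 change -3.82, SE 0.13, adjusted p = 0.000119), with all 4 arrays well above the floor. Rps27, a zinc finger protein of the small subunit, read 6.53 and 6.57 with berberine, against 10.45 and 9.69 in control, and fell at least 11.3-fold (adjusted p = 0.000819). Rps3a1 read 5.43 and 5.12 with berberine, against 8.13 and 8.08 in control, a fall of at least 2.89-fold (adjusted p = 0.000326). The groups were far apart at each of these 3 genes, and the calls held in every alternative setting tried.

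Rps16 read 8.21 and 8.14 with berberine, against 9.31 and 9.57 in control, and fell 2.40-fold (adjusted p = 0.00258). Rpsa, also known as a laminin receptor precursor, read 6.59 and 6.57 with berberine, against 7.59 and 7.71 in control. It fell 2.10-fold (adjusted p = 0.00266), with a berberine mean only just above the floor. Without berberine replicate 1 or 2 neither passed (adjusted p 0.0512 and 0.0605 for Rps16, 0.052 and 0.0547 for Rpsa). Rps29 read 2.97 and 4.07 with berberine, against 5.73 and 5.05 in control. All 4 of these values lay below the floor, so no fold is given, although the probe passed (adjusted p = 0.0225). Its call was lost in 8 of 11 alternative settings.

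Rps24, which is mutated in some people with Diamond-Blackfan anaemia, read 13.88 and 13.77 with berberine, against 12.55 and 12.99 in control. It rose 2.08-fold (log2 change 1.06, SE 0.19, adjusted p = 0.00979), but did not pass without berberine replicate 1 (adjusted p = 0.108) or 2 (0.0976). Rps25, known for its part in initiation at some viral internal ribosome entry sites, read 11.94 and 12.07 with berberine, against 11.61 and 11.12 in control, and missed the threshold narrowly (log2 change 0.64, adjusted p = 0.053), passing under 7 alternative settings. Rps2 and Rps3, which line the mRNA entry channel, did not pass, with log2 changes of 0.23 and 0.31 (adjusted p = 0.256 and 0.114), and both turned negative in the deposited values and after cyclic loess, while Rps3 was called higher after centring on the median (adjusted p = 0.0417). Rps13 read 10.02 and 7.94 with berberine, against 10.02 and 9.41 in control, so the 2 berberine arrays differed from each other more than the groups did (log2 change -0.73, adjusted p = 0.438). With the replicate number as a block it was called lower (adjusted p = 0.0277).

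Of 8 listed proteins of the 5S particle or known to bind Mdm2, 6 were measured. By the brightest probe of each, Rpl5 and Rpl23 rose, Rps7 and Rps27 fell, and Rps3 and Rps27l did not pass, where 30.0% of all genes rose and 18.2% fell. The other Rps7 probe was called higher (log2 change 0.90), so the fall of Rps7 holds for its brighter probe only.

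The subunits were compared by their counts and medians over ribosomal proteins proper. In the large subunit 30.8% of probes rose and 38.5% fell, and in the small subunit 13.3% rose and 53.3% fell, beside 27.1% and 17.7% of all probes. The median log2 change was -0.14 over the 26 large subunit probes and -0.90 over the 15 small subunit probes, a difference of 0.76. The difference was 0.71 after cyclic loess and 1.19 under each of the 3 other scalings, which shift every probe of an array by the same amount. With 1 probe per gene, the brightest over all 4 arrays, it was 1.47. That choice keeps the Rps7 probe that fell, which is bright in control only. With berberine it read 8.37 and 8.31, against 11.45 and 11.41 at the Rps7 probe left out, which rose. The small subunit median read 9.73 and 8.31 on log2 on the berberine arrays, against 10.45 and 9.93 on the control arrays, and the large subunit median 12.13 and 12.17 with berberine, against 11.65 and 11.45 in control. Taken within each array, the large minus small difference of these medians was 2.40 and 3.86 with berberine, against 1.21 and 1.52 in control. On that scale the groups differed by 1.77 with an SD of 0.74 between arrays of one group, and both berberine arrays lay above both control arrays. The small subunit median fell on Rps21 in berberine replicate 1 and on the brighter Rps7 probe in replicate 2. Rps13, at 10.02 and 7.94, lay above that median in replicate 1 and below it in replicate 2, so the value rests on few probes. Both subunits spanned wide ranges, from -3.71 to 1.70 in the large and from -5.67 to 1.06 in the small, so neither moved as a block. The 2 sets of probes also differed in brightness. Their median level, taken over the mean of the 4 arrays, was 12.16 on log2 in the large subunit and 10.06 in the small. What part level has in the subunit difference was not tested.

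Of 10 ribosomal proteins that serve as reference genes in expression assays, 7 were measured, and by the brightest probe of each 1 rose, 3 fell and 3 did not pass, where 30.0% of all genes rose and 18.2% fell. Among the falls is Rps29, whose values lie below the floor. Rplp0, the 36B4 reference gene, which encodes the base of the P stalk that recruits elongation factors, read 15.23 and 15.22 with berberine, against 14.52 and 14.97 in control. In deposited intensities that was 39799 and 43070 with berberine, against 24638 and 26197 in control. Its log2 change of 0.48 did not pass after quantile normalization (adjusted p = 0.0935), ranged from 0.26 to 1.27 over the scalings, and passed under 2 scalings (on the median and on the 75th percentile) and without control replicate 2 (adjusted p = 0.0284). Among the others, Rpl27 rose, Rpl19, Rpl30 and Rps29 fell, and Rpl4 and Rps13 did not pass. The 7 log2 changes ran from -3.71 to 1.70. Rplp1 and Rplp2, the other proteins of the stalk, were not analysed here.

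Genes with several probes show how far a change belonged to the probe. Of the 8 genes with 2 or 3 probes, Rpl30 moved alike at both. Its brighter probe read 11.81 and 11.83 with berberine, against 13.21 and 13.42 in control, and fell 2.81-fold (adjusted p = 0.00131). Its dimmer probe read 8.20 and 8.02 with berberine, against 10.00 and 9.52 in control, and fell 3.14-fold (adjusted p = 0.00308). Both probes were called lower, so this fall was read by 2 probes. The dimmer one did not pass without berberine replicate 1 or 2 (adjusted p 0.0533 and 0.0677).

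Rps7, which binds Mdm2, was called both ways. Its brighter probe read 8.37 and 8.31 with berberine, against 14.30 and 13.72 in control, and fell 51.0-fold (log2 change -5.67, SE 0.22, adjusted p = 0.000141). Its other probe read 11.45 and 11.41 with berberine, against 10.45 and 10.61 in control, and rose 1.87-fold (log2 change 0.90, SE 0.13, adjusted p = 0.00497). The 2 probes were called in opposite directions, so no single direction can be given for Rps7. The fall was called in every alternative setting, while the rise did not pass with no normalization (adjusted p = 0.152) or when berberine replicate 1 or 2 was left out (0.0746 and 0.0747).

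At other genes 1 probe passed and another did not. Rpl21 read 7.76 and 7.61 with berberine, against 9.04 and 9.30 in control, at its dimmer probe and fell 2.80-fold there (adjusted p = 0.00185, or 0.0524 without berberine replicate 2). Its brighter probe read 11.01 and 10.83 with berberine, against 10.31 and 10.70 in control, and did not pass (log2 change 0.42, adjusted p = 0.121), with values just below 0 in the deposited data and after cyclic loess. The groups overlapped at neither Rpl21 probe. Rps15a read 5.89 and 5.83 with berberine, against 6.78 and 6.74 in control, at its dimmer probe, a fall of at least 1.14-fold (adjusted p = 0.00404) that was lost in 4 alternative settings, among them without berberine replicate 1 or 2 (0.0582 and 0.062). Its brighter probe read 11.39 and 11.36 with berberine, against 11.21 and 11.62 in control (log2 change -0.04, adjusted p = 0.879), so there the groups overlapped. Neither probe of Rpl27a passed after quantile normalization. Its brighter probe read 15.62 and 15.88 with berberine, against 15.40 and 15.18 in control (log2 change 0.46), and its dimmer one 14.40 and 14.33 with berberine, against 14.97 and 14.53 in control (log2 change -0.39). The brighter one was called higher after centring on the median (1.25, adjusted p = 0.00515) and with 75th percentile scaling (0.99, adjusted p = 0.0115), and the dimmer one lower without control replicate 2 (-0.61, adjusted p = 0.0394). Neither probe of Rpl37 passed after quantile normalization, with log2 changes of 0.10 at the brighter and -0.49 at the dimmer. The brighter one was called higher after centring on the median (0.81, adjusted p = 0.0197) and was -0.11 after cyclic loess. The dimmer one was called lower in the deposited values, with 75th percentile scaling and after cyclic loess (adjusted p 0.0366, 0.0312 and 0.0214). Where the genes listed so far have 1 probe, no such check was possible. Ribosomal protein genes have many processed pseudogenes with near-identical sequence, and since probe sequences were not used here, signal shared with such copies was not tested.

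**Figure D2:**
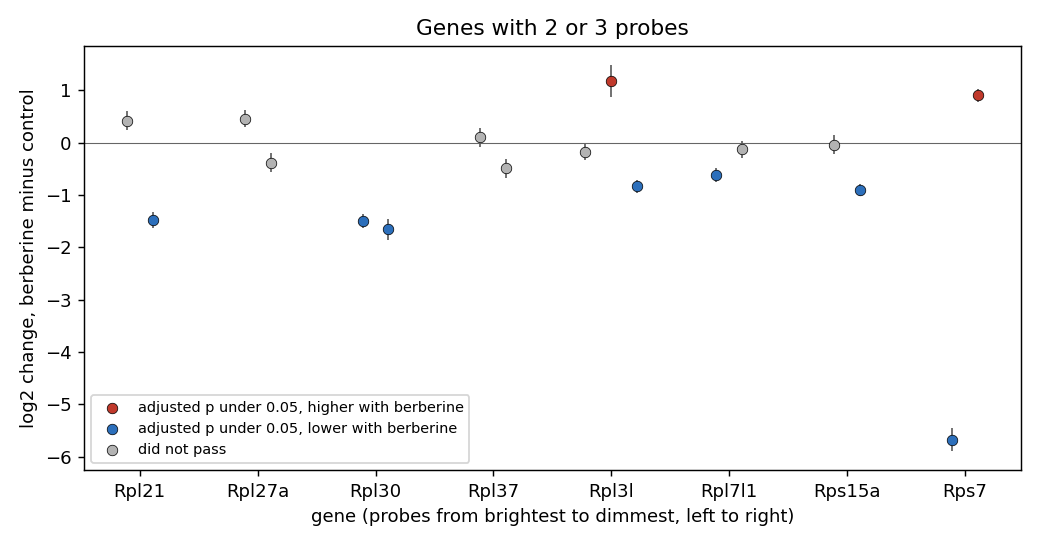
Log2 change, berberine minus control (vertical axis), with its standard error, at each probe of the 8 genes that have 2 or 3 probes, drawn from the brightest to the dimmest probe within a gene. Both Rpl30 probes lie near -1.5, the Rps7 probes lie at -5.67 and 0.90, and Rpl3l has 1 probe in each class.

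Of the 8 probes of the paralogs and the binding partner 2 rose and 2 fell (25% each), with a median log2 change of -0.15. Of all probes 27.1% rose and 17.7% fell, so these counts lay near the background. Rps27l, a p53-inducible paralog of Rps27, read 15.04 and 15.18 with berberine, against 15.34 and 15.50 in control, and did not pass (log2 change -0.31, adjusted p = 0.123), whereas Rps27 itself fell at least 11.3-fold. The difference between Rps27l and Rps27 was not tested. Rps27l was called higher after centring on the median (log2 change 0.47, adjusted p = 0.0439) and lower after cyclic loess (log2 change -0.55, adjusted p = 0.0336). Rpl7l1, a homolog of Rpl7, read 13.36 and 13.43 with berberine, against 14.10 and 13.91 in control, at its bright probe and fell 1.53-fold (adjusted p = 0.0193). That call was lost in 4 alternative settings that kept the direction, among them without berberine replicate 1 or 2 (adjusted p 0.142 and 0.12), and the log2 change was 0.11 after centring. Its other probe lay below the floor in both groups.

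Rps19bp1 read 14.30 and 14.17 with berberine, against 13.72 and 13.51 in control, and rose 1.54-fold (adjusted p = 0.0212). The call was lost in 5 of 12 alternative settings, among them without berberine replicate 1 or 2 or control replicate 2 (adjusted p 0.0637 to 0.152). Rpl3l, a paralog of Rpl3 found mainly in heart and skeletal muscle, was dim at all 3 probes, with 1 called higher, 1 called lower with both groups below the floor and 1 that did not pass. The higher one read 8.10 and 7.57 with berberine, against 6.31 and 6.998 in control (adjusted p = 0.0307), and was not called whichever array was left out (adjusted p 0.0602 to 0.195). Rpl39l, a paralog of Rpl39 known from testis, read 8.94 and 7.001 with berberine, against 8.84 and 6.97 in control. Its arrays differed by replicate number and hardly by group (log2 change 0.07, SE 0.87, adjusted p = 0.957).

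Among the members, falls made up more of the calls at dimmer probes. Probes were sorted into quartiles of all 26408 probes by their mean log2 intensity over the 4 arrays. The berberine arrays enter that mean, so a fall itself moves a probe towards a dimmer quartile. Of the falls in the second quartile, Rpl19, Rpl29 and Rps27 had control means (8.83, 8.80 and 10.07) above its upper bound of 8.35. Those of Rpl10a, Rps3a1 and Rpsa (8.33, 8.10 and 7.65) lay below it. In the highest quartile, 8 of 22 member probes rose, 5 fell and the median log2 change was 0.42, against 0.23 for all probes there, of which 35.5% rose and 22.4% fell, so the members' counts lay at the background. In the third quartile, 3 of 14 rose, 6 fell and the median was -0.61, against 0.33 for all probes, of which 40.2% rose and 23.4% fell. In the second quartile, 1 of 9 rose, 6 fell and the median was -1.68, against 0.18 for all probes, of which 23.9% rose and 16.5% fell. In the lowest quartile 3 of 4 fell and none rose, where 8.91% of all probes rose and 8.47% fell. Across the 49 member probes mean level and log2 change correlated at r = 0.35 (Spearman's rho 0.42), and across all probes at r = 0.0018 (rho 0.10). Probes of one array share its scaling, and mean level and change are computed from the same berberine values, so these correlations are not independent evidence. The dim members come in both subunits, with 8 of 32 large and 5 of 17 small subunit probes in the lower 2 quartiles. Of those large subunit probes only Rpl10a, Rpl19 and Rpl29 belong to ribosomal proteins proper, the rest being paralogs, while all the small ones do. By quartile from lowest to highest, the median log2 change was -0.48, -0.93, -1.04 and 0.46 for large subunit members. For small subunit members it was -1.39, -2.83, 0.23 and -0.04, so in the third quartile the small subunit lay higher.

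**Figure D3:**
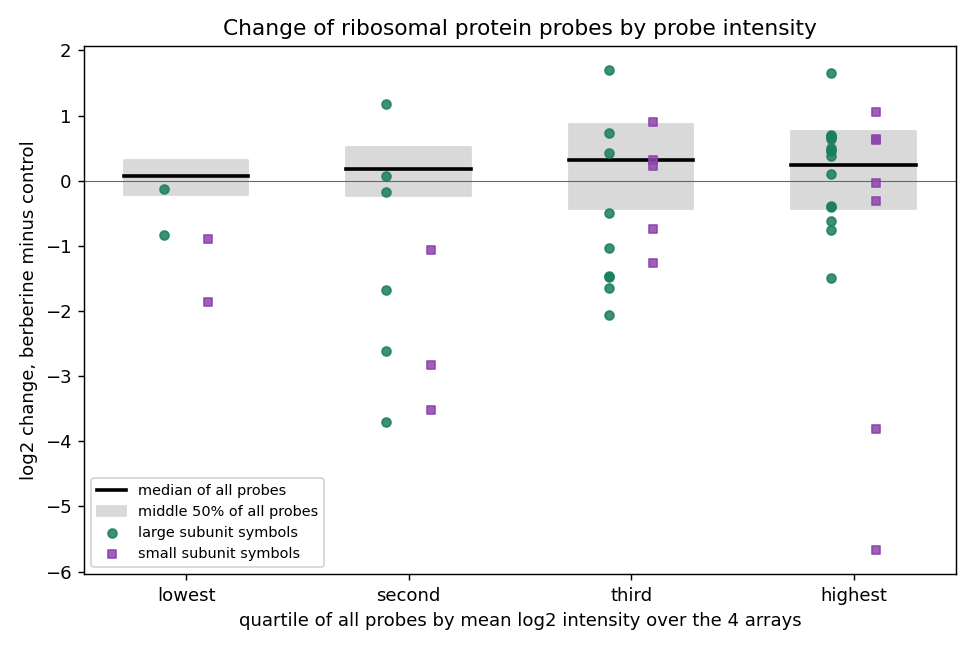
Log2 change, berberine minus control (vertical axis), of each ribosomal protein probe by the quartile of all probes its mean log2 intensity falls in (horizontal axis), large subunit as circles and small subunit as squares. Grey boxes span the middle 50% of all probes and black lines their median. Member probes of the 2 middle quartiles lie mostly below the boxes, and those of the highest quartile mostly inside them, apart from Rps7 and Rps21 far below.

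The number of member probes called varied with the scaling. The member probes called were 4 higher and 17 lower in the deposited values, where 9.07% and 16.2% of all probes were so called, and 19 higher and 15 lower after centring on the median (40.5% and 12.5% of all probes). Scaling on the 75th percentile gave 14 higher and 16 lower (21.1% and 14.0% of all probes), and cyclic loess 6 higher and 22 lower (16.6% and 23.1%). The members' median moved between -0.55 and 0.15, but it lay 0.36 to 0.54 below that of all probes under all 5 scalings. Under all 5, 3 member probes were called higher (8.57% of all probes) and 15 lower (12.5% of all probes). The 3 higher ones were Rpl14, Rpl27 and Rps24.

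The calls that also held without any 1 array and in the other settings were fewer. In the main setting and 11 alternatives, 2 member probes were called higher each time, Rpl14 and Rpl27, where 3.75% of all probes were. Called lower each time were 10 member probes, where 7.38% of all probes were. They were Rps7 at its brighter probe, Rps21, Rpl19, Rps27, Rps3a1, Rpl29, Rpl35a, Rpl10a, Rpl30 at its brighter probe and Rpl13.

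**Figure D4:**
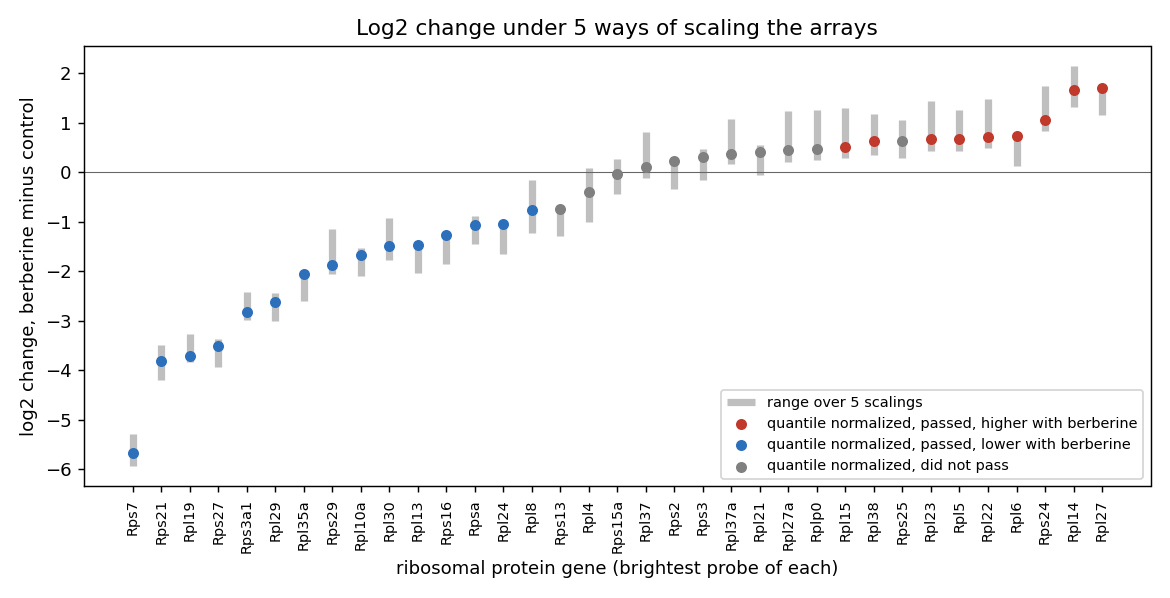
Log2 change, berberine minus control (vertical axis), of the 35 ribosomal protein genes at the brightest probe of each, with points for quantile-normalized values coloured by call and grey bars for the range over 5 scalings. Bars of Rpl14, Rpl27 and Rps24 stay above 0, and those of genes near the middle of the order, such as Rpl4 and Rps2, cross it.

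Genes that make ribosomes or work with them, rather than being part of them, were described from lists. These lists use the brightest probe of each gene, and over all 17734 genes 30.0% rose and 18.2% fell, with a median log2 change of 0.20. Of 43 measured genes of small nucleolar particles and nucleolar assembly, 21 rose, 8 fell and 14 did not pass, with a median of 0.54 that stayed between 0.32 and 1.14 over the scalings. Rrp12, a factor of subunit export, read 13.32 and 13.56 with berberine, against 10.98 and 10.78 in control, and rose 5.91-fold (adjusted p = 0.000424). Ddx21, a nucleolar RNA helicase, rose 2.69-fold (adjusted p = 0.000994) at 1 probe and did not pass at another (log2 change 0.33). Rsl1d1, a nucleolar protein with a ribosomal L1 domain, read 9.86 and 9.83 with berberine, against 14.67 and 14.80 in control, and fell 29.6-fold (adjusted p = 7.13e-05). Gar1, a protein of the particles that guide pseudouridylation, fell 3.70-fold (adjusted p = 0.000819).

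Of 15 genes of RNA polymerase I and its factors, which transcribe ribosomal RNA, 8 rose and 2 fell, with a median log2 change of 0.59. The count that rose was 2 after cyclic loess and 12 after centring on the median. Ttf1, a terminator-binding factor, rose 2.93-fold (adjusted p = 0.00281), and Twistnb, a polymerase I subunit, rose 2.12-fold (adjusted p = 0.0107) with another probe at 0.47 that did not pass. The subunits Polr1b and Cd3eap fell 1.97-fold and 1.95-fold (adjusted p = 0.0053 and 0.00877), and another Cd3eap probe did not pass (log2 change 0.10).

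Of 16 genes of ribosomal protein chaperones and regulators of TOP mRNAs, 2 rose and 7 fell, with a median log2 change of -0.53 that was 0.029 after centring. Larp1, which binds TOP mRNAs and represses their translation, read 7.37 and 6.78 with berberine, against 12.08 and 11.48 in control, and fell 26.1-fold (adjusted p = 0.000462). Larp4, an mRNA-stabilising relative of Larp1, fell at both of its probes (log2 changes -4.71 and -4.94). Heatr3, which takes part in the nuclear import of Rpl5, fell 24.1-fold (adjusted p = 0.000174), and Igf2bp1, an RNA-binding protein, fell at least 9.89-fold (adjusted p = 0.000386). Larp1, Heatr3 and Igf2bp1 rest on 1 probe each.

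Among 7 proteins that work with the ribosome, 1 rose and 3 fell. Tpt1, whose mRNA carries a TOP motif, fell at least 7.78-fold (adjusted p = 0.000205), Btf3, part of the nascent chain complex, 2.20-fold (adjusted p = 0.00446) and Naca, its partner, 1.41-fold at its bright probe (adjusted p = 0.0253), a value that turned to 0.26 on log2 after centring. Eef1b2, a guanine exchange factor of elongation, rose 1.58-fold (adjusted p = 0.0179) and was at 0.04 on log2 in the lowest of the scalings. Fau, which encodes the small subunit protein Rps30 as a fusion with a ubiquitin-like protein and lies outside the symbol rule, read 10.67 and 10.76 with berberine, against 14.99 and 14.75 in control, and fell 17.9-fold (adjusted p = 0.000121).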

How the data were processed

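The authors deposited linear Cy5 probe intensity values in whole numbers, 1 column per array, per the labels; not given in the sources used here were scanner, background correction and scaling, which leaves the zero point unknown. Groups came from the sample titles, since the treatment text in the labels is the same for all samples and mentions berberine for controls too. Of 26423 probes, 15 had a value of 0 or less and did not enter the fit. Because array medians differed by 0.81 on log2, above the limit of 0.5, log2 intensities were quantile-normalized (limma 3.58.1, R 4.3.3) and fitted with lmFit and eBayes on all 26408 probes (2 residual and 2.89 prior degrees of freedom). With 2 arrays in each group the smallest exact permutation p is 0.333, so each p rests on limma's pooled spread. Gene symbols came from the platform table (20377 probes with 1 symbol, 0 with several, 6046 unnamed here), updated through RefSeq; all 49 member probes matched, 1 through an older symbol (Rps3a1). Folds against a group mean below the 25th percentile of all values are given as "at least". Members and lists were chosen with earlier results of these data known. Named genes were, per subunit, up to 6 called genes with the largest rise and 6 with the largest fall above the floor, the 4 brightest, all reference, stalk and Mdm2-related genes, all genes with several probes and all paralogs; from other lists, up to 4 called genes with the smallest p. Further members are named to complete the account of all of them. Alternatives covered scaling, a pseudocount of 16, a filter on dim probes, the variance model, the replicate block and leaving out each array. The fit was tested on simulated data.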

Additional observations from a re-analysis of the deposited data

How the results depend on the processing

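The number of probes called, 11838, was 6687 in the deposited values, 5806 with at least a 2-fold change required and 3346 to 10787 when each array was left out, a fit in which the remaining array of a group borrows the other group's spread. The 12 ribosomal protein probes called higher became 4 in the deposited values, 19 after centring, 6 after cyclic loess, 4 with a 2-fold change required, 7 without control replicate 2 and 2 without either berberine array (2 to 13 over the 4). The 20 called lower became 10 to 19 when an array was left out (11 without berberine replicate 1 and 10 without replicate 2) and were within 1.5 times of 20 otherwise. The members' median log2 change of -0.31 was 0.15 after centring, -0.10 with 75th percentile scaling, -0.55 after cyclic loess, -0.11 with 1 probe per gene and -0.34 to -0.072 without each array (-0.072 without berberine replicate 2). Relative to all probes it was -0.52 to -0.26 without each array, -0.26 being the value without berberine replicate 2. The large minus small subunit difference of 0.76 was 0.67 to 0.93 without each array, 0.71 after cyclic loess, 1.19 under the other scalings and 1.47 with 1 probe per gene. The causes were not tested. With the replicate block, 12760 probes were called, and 13 and 21 members were higher and lower; Rps13 (lower, adjusted p = 0.0277) and Rps25 (higher, adjusted p = 0.0162) were the 2 members gained. Deviations of same-numbered arrays correlated at 0.0035 over all probes and 0.32 over the 49 member probes, and no label says that the numbers mark pairs. Among the members, Rpl39l read lower in replicate 2 in both groups (8.94 and 7.001 with berberine, 8.84 and 6.97 in control). So did Rps13 (10.02 and 7.94 with berberine, 10.02 and 9.41 in control). The member correlation without these 2 probes was not computed. Of 585 alternative values of the 49 member probes, 453 kept direction and side of the threshold, 80 lost a call, 26 gained one and 26 changed sign, none of these with a call both after quantile normalization and in the alternative. Rps27l, not called after quantile normalization, was called higher after centring and lower after cyclic loess. After centring, changed signs were Rpl27a 0.40 (its dimmer probe), Rps15a 0.28 (its brighter probe), Rps27l 0.47, Rpl7l1 0.23 and 0.11 and Rpl4 0.087. After scaling on the 75th percentile they were Rpl27a 0.14, Rps15a 0.018, Rps2 -0.021, Rps27l 0.21 and Rpl39l -0.10. In the deposited values they were Rpl21 -0.013, Rps3 -0.094, Rps2 -0.33 and Rpl39l -0.41, and after cyclic loess Rpl21 -0.056, Rpl37 -0.11, Rps3 -0.15, Rps2 -0.24 and Rpl39l -0.084. Without control replicate 2 they were Rps15a 0.17 and Rpl39l -0.85, without control replicate 1 Rpl37 -0.095, without berberine replicate 1 Rpl39l -0.91 and without berberine replicate 2 Rps13 0.30 and Rpl7l1 0.0014. Over the 4 fits without an array, Rps13 ranged from -1.77 to 0.30 and Rpl39l from -0.91 to 1.08. Precision is limited by the 2 arrays per group, and at the 8 probes whose dimmer group lay under the floor, by signal near the background.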
